A study of Homo sapiens with 27 samples.

Results

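Bone morphogenetic protein (BMP) signalling was described through 10 genes of the 60619 in the count table. They are the receptors BMPR1A, BMPR1B, BMPR2 and ACVR1, the ligands BMP2, BMP4 and BMP7, and the ID genes ID1, ID2 and ID3. They were selected on known membership of the pathway and chosen by a measured value of the same data, the log2 fold change of BMPR1B in the SUM44 LTED variants against SUM44F, so differences of the SUM44 LTED variants from SUM44F, and those of BMPR1B between any SUM44 groups, are given here as a description with no p-value. Where such a difference is said to be called, its values passed the thresholds used elsewhere, and nothing is supported by that. RNA was sequenced from 2 human ER-positive invasive lobular carcinoma lines, MDA-MB-134VI (MM134) and SUM44PE (SUM44), and from long-term estrogen-deprived (LTED) variants of both. Each variant was generated independently over months in charcoal-stripped serum, as a model of resistance to estrogen deprivation. There were 9 groups of 3 libraries: MM134 parental cells with 4 variants (A, B, D and E), and, for SUM44, the parental cultures SUM44PE and SUM44F with 2 variants (LTED-A and LTED-B). SUM44F was made from SUM44PE by culture in DMEM and L-15 with serum, and it is the parent of both SUM44 LTED variants. Parental cells had 3 days without hormone before harvest, so the length of deprivation and the derivation of a variant cannot be told apart.

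BMP ligands bring together type I receptors (BMPR1A, BMPR1B, ACVR1) and type II receptors (BMPR2), and the active type I receptor phosphorylates SMAD1, SMAD5 and SMAD9. These enter the nucleus with SMAD4 and act on target genes, of which the ID genes are the best known in many cell types. ID proteins lack a DNA-binding region and hold E proteins such as TCF3 away from DNA. In the mammary gland, BMP signalling takes part in branching and in epithelial differentiation.

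Libraries held 28583554 to 134882175 estimated counts, with a median of 44018412. In SUM44 LTED-A, replicates 2 and 3 were closer to each other than sampling noise allows and were counted as 1 sample, which left 2 samples in that group and 26 in all. Per the study's methods, the cells of each group were plated in triplicate in 6-well plates. Nothing in the labels says that replicates came from separate derivations. The p-values therefore measure only the spread between these samples, not that between derivations of a variant. Levels are CPM, the estimated count scaled to a library size normalized over all 9 groups. All 7 luminal epithelial markers were at 1 CPM or more in every sample. SUM44F replicate 1 stood apart in markers of other cell types: its 6 fibroblast markers summed to 361 CPM against 9.47 and 8.40 CPM in the other SUM44F samples, and its 5 endothelial markers to 45.5 CPM against 31.4 and 25.9 CPM. The endothelial sum was lower than in all 3 SUM44F samples in SUM44PE (10.9 to 11.2 CPM) and the SUM44 LTED samples (2.82 to 4.58 CPM). PECAM1 alone was 27.3, 26.8 and 21.7 CPM in SUM44F replicates 1, 2 and 3, and 7.40 to 8.37 CPM in SUM44PE. It made up most of the sum in SUM44F replicates 2 and 3, while replicate 1 also had a higher sum of the other endothelial markers. The part of the fibroblast and endothelial transcripts in differences from SUM44F was not tested, and counts without SUM44F replicate 1 are given below. Over all genes compared, it was SUM44F replicate 3 that differed most from the other SUM44F samples. That sample was also the deepest of the 3 and had the lowest BMP4, ID1 and ID3 levels among them. Its part in differences from SUM44F was not tested. In MM134 the 6 immune markers summed to 0.515 to 1.33 CPM in parental samples, 24.1 to 24.6 CPM in LTED-A, mostly CD68 and LYZ, and 4.43 to 9.56 CPM in the other variants, while CD3E had at most 7 counts in any library. PTPRC and CD14 did not rise with that sum in LTED-A. Their means were 0.177 and 0.153 CPM in MM134 parental cells, and 0.152 and 0.0663 CPM in LTED-A. The 6 fibroblast markers summed to 20.9, 23.6 and 35.96 CPM in MM134 parental replicates 1, 2 and 3, and COL1A1 alone to 19.2, 22.4 and 22.6 CPM. In LTED-D they summed to 27.7 CPM in replicate 2, against 12.6 and 12.5 CPM in replicates 1 and 3. The sums were 8.30 to 13.2 CPM in variants A, B and E. The part of the immune and fibroblast markers in differences between MM134 groups was not tested. In a bulk sample, fewer expressing cells and less RNA per cell cannot be told apart.

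BMPR1B had the widest range of levels, which includes the SUM44 LTED values that helped to choose the genes. The ID genes are the usual targets of the pathway. For these reasons the promoters of BMPR1B and of the 3 ID genes are shown. They are RefSeq windows on GRCh38.p14, from 250 bases before to 50 bases after the start site, and 8 of the 10 genes had an entry. Capitals mark GGCGCC or GGAGCC (GC-rich letters that SMAD1 and SMAD5 can bind) and CAGAC (the SMAD box) on either strand, and TATAAA on the strand of the gene. The windows are chr4:94757705-94758004 (plus strand) for BMPR1B, chr20:31605039-31605338 (plus strand) for ID1, chr2:8681806-8682105 (plus strand) for ID2 and chr1:23559452-23559751 (minus strand) for ID3.
BMPR1B: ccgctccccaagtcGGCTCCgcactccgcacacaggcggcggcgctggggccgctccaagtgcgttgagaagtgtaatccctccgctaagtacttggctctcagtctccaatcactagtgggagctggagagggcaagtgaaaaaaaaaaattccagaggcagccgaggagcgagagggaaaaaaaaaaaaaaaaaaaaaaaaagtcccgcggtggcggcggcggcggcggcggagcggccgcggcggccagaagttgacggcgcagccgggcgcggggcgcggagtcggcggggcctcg
ID1: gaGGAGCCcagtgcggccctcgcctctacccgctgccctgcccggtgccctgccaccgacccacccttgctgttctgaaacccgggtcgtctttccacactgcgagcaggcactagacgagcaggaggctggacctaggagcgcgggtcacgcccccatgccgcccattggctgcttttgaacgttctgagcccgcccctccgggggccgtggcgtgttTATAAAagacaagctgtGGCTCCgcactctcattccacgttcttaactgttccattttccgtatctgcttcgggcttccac
ID2: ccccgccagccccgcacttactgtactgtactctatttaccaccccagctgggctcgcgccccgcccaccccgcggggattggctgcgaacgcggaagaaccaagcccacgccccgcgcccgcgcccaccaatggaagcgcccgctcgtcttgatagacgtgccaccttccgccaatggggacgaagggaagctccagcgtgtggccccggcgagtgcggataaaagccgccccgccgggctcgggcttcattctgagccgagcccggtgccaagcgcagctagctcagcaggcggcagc
ID3: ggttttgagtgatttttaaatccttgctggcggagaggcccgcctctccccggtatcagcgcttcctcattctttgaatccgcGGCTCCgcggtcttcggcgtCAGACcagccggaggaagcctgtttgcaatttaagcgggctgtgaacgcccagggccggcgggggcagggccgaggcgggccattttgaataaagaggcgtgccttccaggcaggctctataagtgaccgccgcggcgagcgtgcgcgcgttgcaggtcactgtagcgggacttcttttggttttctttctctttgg
BMPR1B had 1 match, GGAGCC on the opposite strand at bases 15 to 20 of the window. ID1 had GGAGCC at bases 3 to 8 and, on the opposite strand, at bases 237 to 242, with TATAAA at bases 220 to 225. ID3 had GGAGCC on the opposite strand at bases 84 to 89 and CAGAC at bases 104 to 108, and the ID2 window held none of these letters. Such matches are common: of 35116 promoter windows of this length, 35.99% held GGAGCC, 45.3% CAGAC, 19.2% GGCGCC and 7.33% TATAAA. The ID2 window lies around a start site 3211 bases from the start of the annotated gene.

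BMPR1B, a type I receptor, rose in all 4 MM134 LTED variants. It had the widest range of the 10 genes, with its top in SUM44 LTED-B, a value that helped to choose them. Its gene (ENSG00000138696, chromosome 4, 94757955 to 95158448 on GRCh38, plus strand) was near the limit of detection in MM134 parental cells, with 0.229, 0.162 and 0.356 CPM in the 3 samples. It stood at 9.68, 9.06 and 9.19 CPM in LTED-A and at 2.09, 2.48 and 2.44 CPM in LTED-B. LTED-D had 3.39, 3.73 and 3.53 CPM, and LTED-E had 1.16, 1.04 and 1.26 CPM. Every LTED sample lay above every parental sample, and no pair of MM134 groups overlapped. A DE gene is one that changed over 1.5-fold with an adjusted p under 0.001 by edgeR's quasi-likelihood test, with Benjamini-Hochberg adjustment over all genes tested. The rise over parental cells was 37.7-fold in LTED-A (log2 fold change 5.24 ± 0.16 SE, adjusted p = 1.73e-15, edgeR). It was 14.6-fold in LTED-D (3.87 ± 0.17, adjusted p = 1.09e-12, edgeR) and 9.52-fold in LTED-B (3.25 ± 0.18, adjusted p = 2.95e-11, edgeR). LTED-E had the smallest rise, 4.74-fold (2.24 ± 0.20, adjusted p = 1.97e-08, edgeR). All 4 comparisons share the same 3 parental samples.

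In the SUM44 cells BMPR1B was 0.369, 0.469 and 0.713 CPM in SUM44F, 16.6 and 18.4 CPM in LTED-A, with 70.98, 69.4 and 65.6 CPM in LTED-B. SUM44PE, the culture from which SUM44F was made, had 2.87, 2.81 and 3.05 CPM. These 4 groups did not overlap, and SUM44PE lay between SUM44F and the variants. Over all 9 groups the mean ran from 0.249 CPM in MM134 parental cells to 68.7 CPM in SUM44 LTED-B, and every pair of neighbours in that order was separated. MM134 LTED-E was the lowest LTED variant at 1.15 CPM. Both it and MM134 LTED-B, at 2.34 CPM, lay below SUM44PE parental cells at 2.91 CPM.

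**Figure D1:**
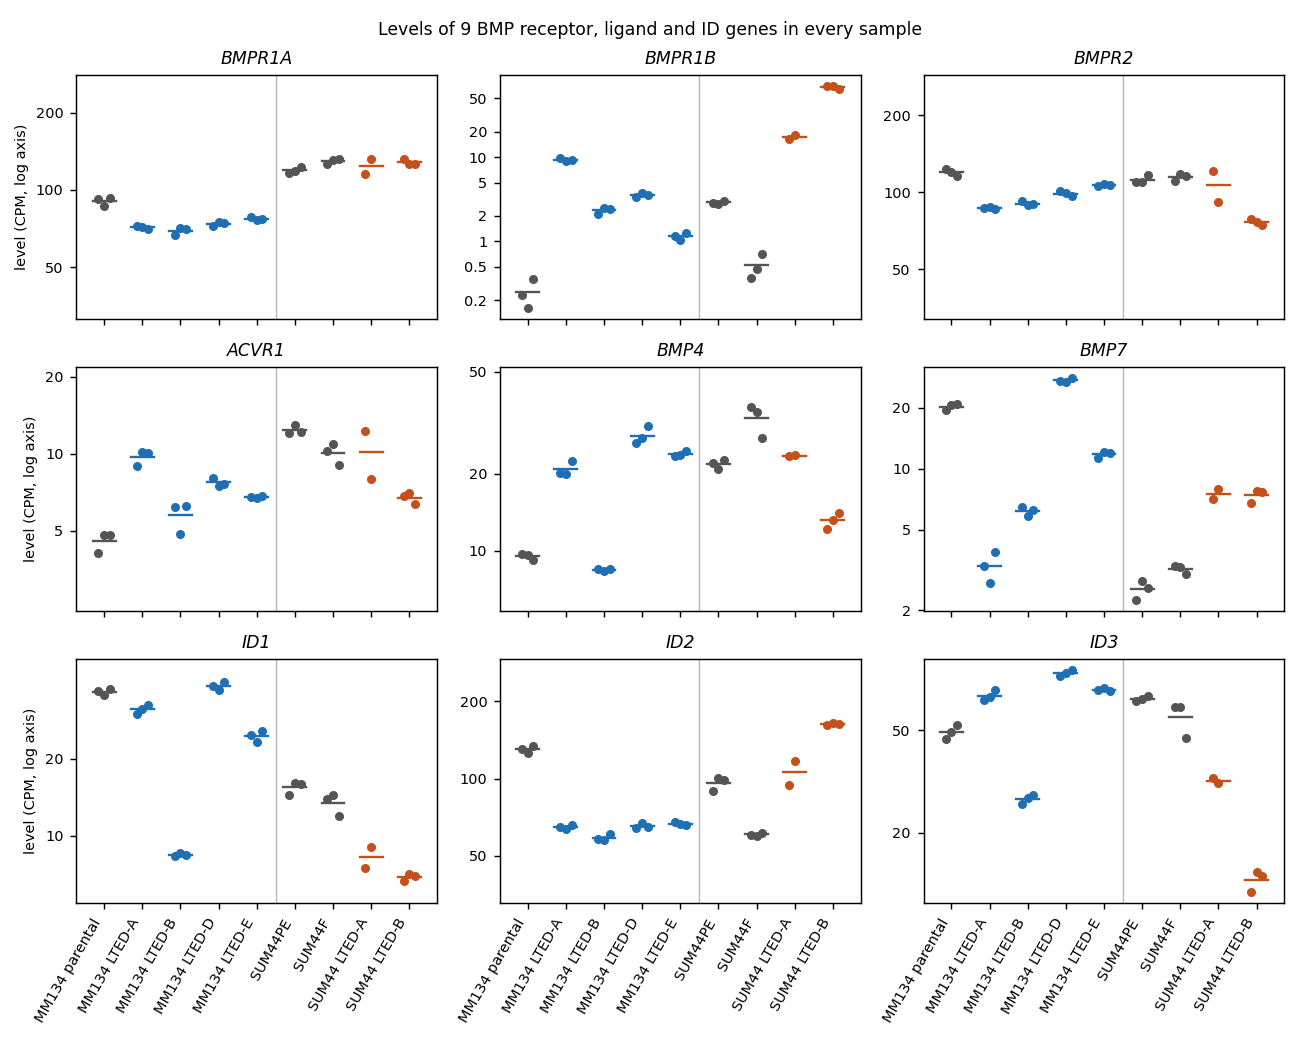
Level (CPM, log axis) of 9 genes in every sample of the 9 groups, with points for samples and short lines for group means. BMPR1B runs from 0.249 to 68.7 CPM across group means while BMPR1A stays between 69.4 and 130 CPM, and ID2 is lower in all MM134 LTED groups and higher in both SUM44 LTED groups than in MM134 parental cells and SUM44F.

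BMPR1A, the other BMP type I receptor of the same subfamily (ENSG00000107779, chromosome 10), varied little. Its mean level ran from 69.4 CPM in MM134 LTED-B to 130 CPM in SUM44F, a 1.87-fold span. In MM134 it was 91.8, 86.6 and 92.9 CPM in parental samples and 66.9 to 78.4 CPM over the 12 LTED samples, with no overlap. The log2 fold changes were -0.34, -0.38, -0.28 and -0.22 in variants A, B, D and E. Each had an adjusted p under 0.001 (at most 1.32e-05, edgeR) but none reached 1.5-fold, so BMPR1A was not a DE gene. In SUM44 the LTED samples (116 to 132 CPM) overlapped SUM44F (127 to 132 CPM).

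Per kb of exon, BMPR1B was 0.00420 ± 0.0015 (SD) of BMPR1A in MM134 parental cells and 0.00609 ± 0.0020 in SUM44F. This ratio was 0.200 ± 0.0057 in MM134 LTED-A and 0.217 ± 0.0038 in SUM44 LTED-A. It reached 0.822 ± 0.023 in SUM44 LTED-B, where the level of BMPR1B came nearest to that of BMPR1A. The other 4 groups lay between 0.0230 (MM134 LTED-E) and 0.0739 (MM134 LTED-D).

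BMPR2, the type II receptor of BMP ligands (ENSG00000204217, chromosome 2), varied least, with means from 76.6 CPM in SUM44 LTED-B to 120 CPM in MM134 parental cells. In MM134 it was 123, 120 and 115 CPM in parental samples and 85.95 to 107 CPM over the LTED samples. The log2 fold changes were -0.47, -0.40, -0.27 and -0.15 in variants A, B, D and E, all under 1.5-fold. In SUM44 LTED-B it was 78.7, 76.4 and 74.8 CPM against 111, 118 and 116 CPM in SUM44F, and the log2 fold change was -0.59 ± 0.09. That value was just past 1.5-fold, and the call was lost when any of the 8 samples in the fit was left out (-0.61 to -0.56). The SUM44 LTED-A samples stood at 121 and 91.8 CPM, on either side of SUM44F. An unnamed gene, ENSG00000289490, overlaps exons of BMPR2 and was not analysed here.

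ACVR1, a type I receptor shared by BMP and activin ligands (ENSG00000115170, chromosome 2), was 4.09, 4.83 and 4.80 CPM in MM134 parental cells. It rose in LTED-A to 8.99, 10.2 and 10.1 CPM (2.12-fold, adjusted p = 8.64e-09, edgeR) and in LTED-D to 8.04, 7.50 and 7.64 CPM (1.70-fold, adjusted p = 1.83e-06, edgeR). It was not a DE gene in LTED-B (4.87 to 6.27 CPM, log2 fold change 0.34 ± 0.10) or LTED-E (6.72 to 6.82 CPM, 0.58 ± 0.10). The LTED-E value lay at the 1.5-fold limit and passed it without MM134 parental replicate 2 (0.62), parental replicate 3 (0.61) or LTED-E replicate 2 (0.59). In SUM44 it was 10.3, 10.9 and 9.03 CPM in SUM44F, 12.3 and 7.97 CPM in LTED-A, with 6.87, 6.995 and 6.37 CPM in LTED-B. The LTED-B samples lay below SUM44F (log2 fold change -0.58, not called), and the LTED-A samples lay on either side of it (0.002).

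Of the ligands, BMP2 (ENSG00000125845, chromosome 20) was not detectable in most groups. All libraries of 8 groups had at most 3 counts, and the highest count, in a SUM44PE sample, was 12. MM134 parental cells had 0 counts, which allows up to 0.0972 CPM (3 counts) at the depth of the shallowest of those samples, for counting error only. BMP2 did not pass the filter on low counts, and so 9 of the 10 genes were tested.

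BMP4 (ENSG00000125378, chromosome 14) rose in 3 of the MM134 variants. It was 9.69, 9.63 and 9.20 CPM in parental cells and 20.04, 19.9 and 22.5 CPM in LTED-A (2.17-fold, adjusted p = 7.79e-12, edgeR). LTED-D had 26.2, 27.4 and 30.6 CPM (2.98-fold, adjusted p = 8.25e-14, edgeR), and LTED-E had 23.5, 23.6 and 24.5 CPM (2.52-fold, adjusted p = 6.92e-13, edgeR). LTED-B, at 8.47, 8.34 and 8.48 CPM, lay just below all parental samples (log2 fold change -0.17 ± 0.07, adjusted p = 0.0398, edgeR) and was not called. In SUM44 the level was lower in the variants than in SUM44F: 36.4, 34.9 and 27.6 CPM in SUM44F, 23.4 and 23.5 CPM in LTED-A, with 12.2, 13.2 and 14.0 CPM in LTED-B. Neither LTED group overlapped SUM44F, and the log2 fold changes were -0.49 in LTED-A, which was not called, and -1.32 in LTED-B, which was. SUM44PE had 22.05, 20.8 and 22.7 CPM, below both LTED-A samples and above LTED-B. Against SUM44PE the log2 difference was 0.14 in LTED-A, not called, and -0.70 in LTED-B, called. The antisense gene ENSG00000287156 overlaps exons of BMP4 and was not analysed here.

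BMP7 (ENSG00000101144, chromosome 20) fell in 3 of the MM134 variants. It was 19.4, 20.6 and 20.8 CPM in parental cells and 3.32, 2.73 and 3.89 CPM in LTED-A (log2 fold change -2.62 ± 0.08, adjusted p = 2.18e-15, edgeR). LTED-B had 6.45, 5.83 and 6.27 CPM (-1.71 ± 0.08, adjusted p = 1.25e-12, edgeR), and LTED-E had 11.3, 12.1 and 11.9 CPM (-0.77 ± 0.07, adjusted p = 2.93e-08, edgeR). LTED-D, at 27.1, 26.9 and 28.1 CPM, lay above all parental samples, but its log2 fold change of 0.44 ± 0.07 was under 1.5-fold. In SUM44 it was 3.32, 3.26 and 3.03 CPM in SUM44F, 7.09 and 7.91 CPM in LTED-A, with 6.81, 7.79 and 7.71 CPM in LTED-B. Both variants lay above SUM44F and both were called, with log2 fold changes of 1.23 ± 0.12 and 1.22 ± 0.11.

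Per kb of exon, BMP7 was 1.22 ± 0.075 (SD) of BMP4 in MM134 parental cells, where it was the higher of the pair, and below BMP4 in the other 8 groups. The ratio was 0.0906 ± 0.011 in MM134 LTED-A, and 0.282 to 0.558 in the other MM134 variants. In SUM44 it was 0.0560 ± 0.0057 in SUM44F, 0.182 ± 0.013 in LTED-A and 0.323 ± 0.012 in LTED-B, so the ratio was lower in the MM134 variants and higher in the SUM44 variants than in their parental cells.

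**Figure D2:**
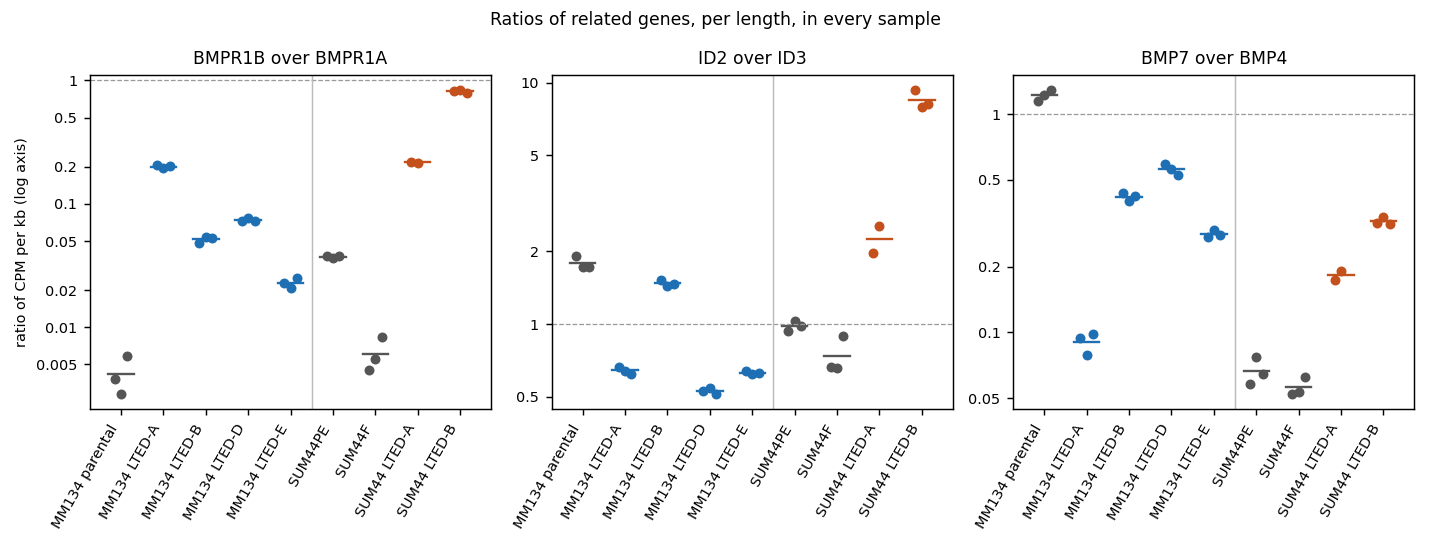
Ratio of CPM per kb of exon (log axis) for BMPR1B over BMPR1A, ID2 over ID3 and BMP7 over BMP4 in every sample, with lines for group means and a dashed line at a ratio of 1. The ratio of BMPR1B to BMPR1A runs from 0.00420 in MM134 parental cells to 0.822 in SUM44 LTED-B, and that of ID2 to ID3 reaches 8.48 in SUM44 LTED-B.

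The 3 ID genes did not move together. ID2 (ENSG00000115738, chromosome 2) was the most uniform across the MM134 variants: it was 131, 125 and 134 CPM in parental cells and 57.8 to 67.5 CPM over the 12 LTED samples. It was downregulated in all 4, with log2 fold changes of -1.02, -1.14, -0.98 and -0.95 in variants A, B, D and E (adjusted p from 1.35e-15 to 1.07e-14, edgeR). In SUM44, ID2 was higher in the variants: 60.4, 59.9 and 61.4 CPM in SUM44F, 94.6 and 117 CPM in LTED-A, with 162, 165 and 163 CPM in LTED-B. None of these 3 groups overlapped, and the log2 fold changes were 0.81 and 1.43, both called. SUM44PE stood at 89.8, 101 and 98.5 CPM and overlapped LTED-A, which was 0.18 above it on the log2 scale and not called. The antisense gene ID2-AS1 overlaps exons of ID2 and had at most 232 counts in a library.

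ID1 (ENSG00000125968, chromosome 20) was a DE gene in a single MM134 variant. It was 36.6, 35.5 and 37.6 CPM in parental cells and 8.38, 8.55 and 8.41 CPM in LTED-B (log2 fold change -2.11 ± 0.05, adjusted p = 5.87e-17, edgeR). The LTED-A samples (29.9 to 32.3 CPM) and the LTED-E samples (23.2 to 25.7 CPM) also lay below all parental samples, with log2 fold changes of -0.24 and -0.56 that did not reach 1.5-fold. The LTED-E value passed that limit without MM134 parental replicate 2 (-0.59) or LTED-E replicate 3 (-0.60). LTED-D (37.3 to 39.998 CPM) overlapped parental cells (0.09 ± 0.04). In SUM44, ID1 was 13.9, 14.5 and 12.004 CPM in SUM44F, 7.49 and 9.07 CPM in LTED-A, with 6.69, 7.09 and 6.97 CPM in LTED-B. Both variants lay below SUM44F, with log2 fold changes of -0.69 (not called) and -0.96 (called). The LTED-A value was called with DESeq2 (-0.65), with no filter on low counts (-0.68) and with at least 10 counts in every sample (-0.71). It was also called with LTED-A replicates 2 and 3 separate (-0.63) and with an adjusted p limit of 0.05. The other alternatives with SUM44F as parent left it uncalled.

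ID3 (ENSG00000117318, chromosome 1) went in opposite directions among the MM134 variants. It was 46.3, 49.3 and 52.5 CPM in parental cells, fell in LTED-B to 25.8, 27.2 and 28.1 CPM (log2 fold change -0.86 ± 0.05, adjusted p = 1.25e-11, edgeR) and rose in LTED-D to 81.5, 83.2 and 85.5 CPM (0.77 ± 0.04, adjusted p = 2.74e-11, edgeR). LTED-A (65.5 to 71.5 CPM) and LTED-E (70.99 to 72.6 CPM) lay above all parental samples with log2 fold changes of 0.46 and 0.55, under 1.5-fold, although LTED-E passed it without MM134 parental replicate 3 (0.60). In SUM44 it was 61.5, 61.3 and 46.5 CPM in SUM44F, 32.5 and 31.1 CPM in LTED-A, with 11.7, 14.02 and 13.6 CPM in LTED-B. The 3 groups did not overlap, and both variants were called, with log2 fold changes of -0.82 ± 0.13 and -2.10 ± 0.12. The call in LTED-A was lost without SUM44F replicate 1 (-0.76), SUM44F replicate 2 (-0.75), either LTED-A sample (-0.81 and -0.79), or LTED-B replicate 2 or 3 (-0.82 and -0.82).

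Per kb of exon, ID2 was 1.78 ± 0.11 (SD) of ID3 in MM134 parental cells and 1.47 ± 0.043 in LTED-B, but 0.529 to 0.642 in variants A, D and E, where ID3 was the higher of the pair. In SUM44 the ratio was 0.739 ± 0.13 in SUM44F, 2.25 ± 0.41 in LTED-A and 8.48 ± 0.75 in LTED-B. ID1 was below ID3 per length in every sample.

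**Figure D3:**
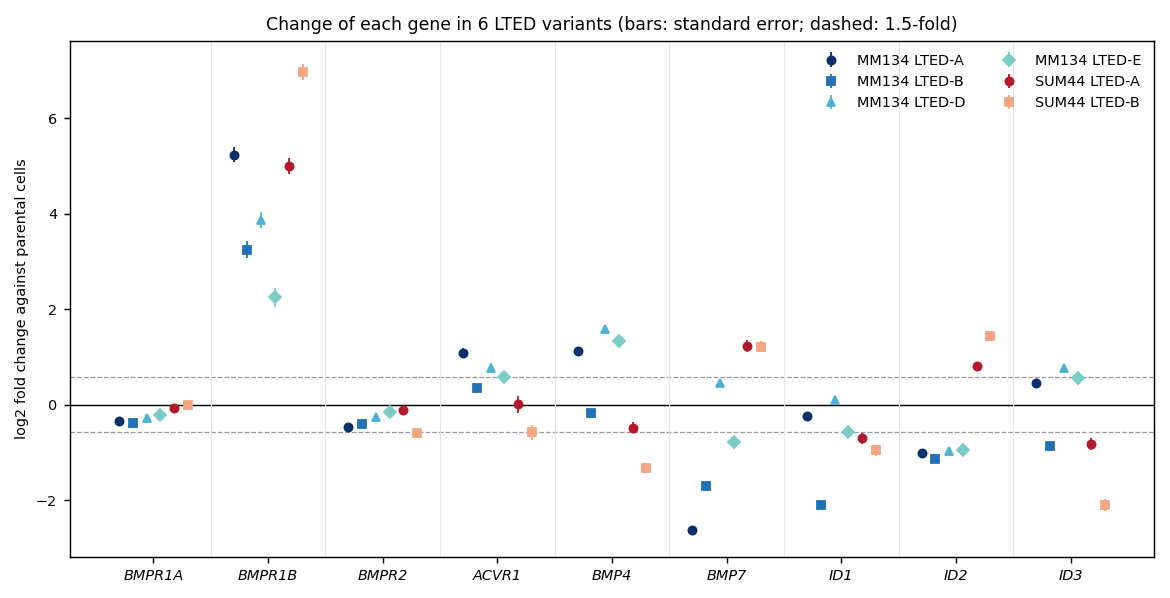
Log2 fold change against parental cells (MM134 parental or SUM44F) of 9 genes in 6 LTED variants, with bars for the standard error and dashed lines at 1.5-fold. BMPR1B is above the upper dashed line in all 6, from 2.24 in MM134 LTED-E to 6.96 in SUM44 LTED-B, while ID2 is below the lower line in the 4 MM134 variants and above the upper line in both SUM44 variants.

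Counted together, 3 of the 9 tested genes were upregulated and 2 downregulated in MM134 LTED-A, where 10.5% and 9.82% of all 26061 genes tested were called in those directions. In LTED-B 1 was upregulated and 4 were downregulated (8.11% and 7.75% of all genes), in LTED-D 4 and 1 (9.63% and 7.95%), and in LTED-E 2 and 2 (8.71% and 10.3%). The median log2 fold change of the 9 genes was -0.24, -0.40, 0.44 and -0.15 in variants A, B, D and E, beside medians of -0.03 to 0.02 over all genes. In SUM44, 3 genes were up and 1 down in LTED-A (6.39% and 7.28% of 26834 genes), and 3 were up and 4 down in LTED-B (8.69% and 8.57%). These SUM44 counts come from the contrast that helped to choose the genes. Without SUM44F replicate 1, the sample with fibroblast markers, 3 genes in all were called in LTED-A and 6 in LTED-B (12.1% and 15.8% of all genes).

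With SUM44PE in place of SUM44F, a comparison added once the data had been seen, 2 genes were up and 2 down in LTED-A (7.05% and 7.27% of 27457 genes), and 3 up and 4 down in LTED-B (10.5% and 9.72%). BMP7, ID1 and ID3 were called in both variants. BMPR1B is counted among the genes that were up, but its values in these LTED samples helped to choose the genes, so its log2 differences (2.63 for LTED-A, 4.59 for LTED-B) are a description. ACVR1, BMP4 and ID2 were called in LTED-B, with log2 fold changes of -0.86, -0.70 and 0.79. BMPR1A (0.09 and 0.13) and BMPR2 (-0.04 and -0.52) were called in neither.

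Between the parental SUM44 cultures, BMPR1B was 2.39 higher in SUM44PE than in SUM44F on the log2 scale. ID2 was higher too (log2 fold change 0.66 ± 0.08, adjusted p = 5.55e-05, edgeR), and BMP4 was lower (-0.60 ± 0.10, adjusted p = 6.01e-04, edgeR). Of all 27457 genes tested, 2.85% were higher and 2.72% lower. The BMP4 call was lost without any 1 of the SUM44PE samples (-0.63 to -0.57), SUM44F replicate 1 (-0.52) or SUM44F replicate 2 (-0.57). SUM44PE means were 119 CPM for BMPR1A, 112 for BMPR2, 12.4 for ACVR1, 21.8 for BMP4, 2.54 for BMP7, 15.5 for ID1 and 66.2 for ID3. The other 6 tested genes were not called, with log2 differences from -0.34 (BMP7) to 0.29 (ACVR1).

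MM134 parental cells and SUM44F differed in 5 genes other than BMPR1B, where 19.1% of 29608 genes were higher and 19.0% lower in MM134. BMP7 was higher in MM134 (log2 fold change 2.67 ± 0.10, adjusted p = 1.07e-17, edgeR), as were ID1 (1.45 ± 0.07, adjusted p = 1.84e-15, edgeR) and ID2 (1.10 ± 0.06, adjusted p = 6.38e-15, edgeR). BMP4 was lower in MM134 (-1.79 ± 0.08, adjusted p = 1.67e-15, edgeR), as was ACVR1 (-1.14 ± 0.12, adjusted p = 1.70e-08, edgeR). The mean of BMPR1B was 0.249 CPM in MM134 parental cells, against 0.517 CPM for SUM44F. Its level in SUM44F helped to choose the genes, so this difference is a description. BMPR1A (-0.52), BMPR2 (0.06) and ID3 (-0.19) were not called.

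Among the MM134 LTED variants themselves, which leaves the parental cells out, 23 of 54 gene-by-pair comparisons were called over 6 pairs. BMPR1B and BMP7 differed in all 6 pairs, ID1 in 4, BMP4 and ID3 in 3 each and ACVR1 in 1, while BMPR1A, BMPR2 and ID2 were called in none. LTED-A and LTED-B differed in 6 genes (7.06% of all genes were called in that pair), LTED-B and LTED-D in 5 (7.40%) and LTED-B and LTED-E in 5 (9.78%). LTED-A and LTED-D differed in 2 (9.88%), as did LTED-A and LTED-E (7.84%), and LTED-D and LTED-E differed in 3 (11.6%). ID1, ID3 and BMP4 were each lower in LTED-B than in the other 3 variants. For ID1 the log2 difference was -2.20 from LTED-D and -1.54 from LTED-E, and LTED-A was 1.87 above LTED-B (adjusted p at most 1.28e-14, edgeR). ID3 differed by -1.63 and -1.41 from those variants, with LTED-A 1.32 above LTED-B (adjusted p at most 4.55e-14, edgeR). BMP7 had the widest difference, -3.06 in LTED-A against LTED-D. For BMPR1B in LTED-B against LTED-D the difference was -0.61 ± 0.11 (adjusted p = 2.59e-04, edgeR), and the call was lost without LTED-B replicate 1 (-0.55), LTED-D replicate 2 (-0.58) or LTED-D replicate 3 (-0.62).

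SUM44 LTED-A and LTED-B differed in 4 genes, BMPR1B included, where 3.56% of all genes were higher and 3.86% lower in LTED-A. BMPR1B was lower in LTED-A (log2 difference -1.97 ± 0.14), a description, since its levels in both variants helped to choose the genes. ID3 was higher in LTED-A (1.28 ± 0.13, adjusted p = 3.91e-05, edgeR) and so was BMP4 (0.84 ± 0.12, adjusted p = 4.78e-04, edgeR), while ID2 was lower (-0.62 ± 0.09, adjusted p = 5.67e-04, edgeR). BMP4 lost its call without SUM44F replicate 2 (0.85), either LTED-A sample (0.86 and 0.82) or any LTED-B sample (0.79 to 0.89). ID2 lost it without any sample other than the merged LTED-A sample (-0.63 to -0.46), and ID3 lost it without LTED-A replicate 1 (1.27). BMPR2 gained a call without the merged LTED-A sample (0.65). A lone LTED-A sample is assumed to vary like the other groups.

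The rest of the pathway was taken as 61 genes in 7 lists, of which 47 were tested in MM134 and 45 in SUM44. In MM134, 9 were upregulated and 10 downregulated in LTED-A, beside 10.5% and 9.82% of all genes. They were 6 and 10 in LTED-B (8.11% and 7.75% of all genes), 9 and 8 in LTED-D (9.63% and 7.95%), and 10 and 15 in LTED-E (8.71% and 10.3%). In SUM44, 5 were up and 4 down in LTED-A (6.39% and 7.28%), and 4 up and 7 down in LTED-B (8.69% and 8.57%). The median log2 fold change of the list ran from -0.21 (SUM44 LTED-B) to -0.09 (SUM44 LTED-A) over the 6 variants. Over all genes the median was -0.09 in SUM44 LTED-B, -0.06 in SUM44 LTED-A and -0.03 to 0.02 in the MM134 variants. SUM44PE and SUM44F differed in 4 of 46 tested genes (2.85% of all genes were higher and 2.72% lower), with NBL1 (2.02), ATOH8 (2.06) and TGFBR1 (0.66) higher and BAMBI (-0.78) lower in SUM44PE.

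Among the intracellular inhibitors, which limit signalling downstream of the ligands, SMAD6, an inhibitory SMAD, rose in all 4 MM134 variants. It was 8.76 ± 0.31 CPM (SD, n = 3) in parental cells and 36.7, 34.1, 42.6 and 67.1 CPM in variants A, B, D and E (log2 fold changes of 2.06, 1.97, 2.30 and 2.95, adjusted p at most 7.52e-17, edgeR). In SUM44 LTED-B it was 11.9 CPM against 20.97 CPM in SUM44F (-0.82, called). SMAD7, the other inhibitory SMAD, fell in all 4 MM134 variants (log2 fold changes of -1.48, -0.92, -0.70 and -0.75). BAMBI, a pseudoreceptor without kinase activity, fell in all 4 as well, from 90.9 ± 2.9 CPM to 56.003, 41.5, 45.2 and 21.9 CPM (adjusted p at most 8.29e-12, edgeR). In SUM44 BAMBI was higher in the variants, at 22.6 CPM in LTED-A, with 82.98 CPM in LTED-B against 8.07 CPM in SUM44F. The difference between the lines was not tested.

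Of the 16 secreted antagonists, which bind BMP ligands outside the cell, 8 were tested in MM134. CHRD (chordin) rose in LTED-B, LTED-D and LTED-E, from 2.63 ± 0.39 CPM to 7.55, 35.5 and 20.1 CPM (adjusted p at most 5.50e-09, edgeR). In SUM44 it was called in both variants at low levels, 1.22 and 1.10 CPM against 0.291 CPM in SUM44F (log2 fold changes of 2.13 and 1.99). The LTED-A call was lost without SUM44F replicate 2 or any LTED sample (2.12 to 2.18), and the LTED-B call without SUM44F replicate 2, LTED-A replicate 1 or any LTED-B sample (1.89 to 2.09). NBL1 fell in MM134 LTED-A (from 152 to 31.8 CPM, log2 fold change -2.27, adjusted p = 1.30e-18, edgeR), LTED-B (-0.72) and LTED-E (-1.29). In SUM44 it was 43.3 ± 7.8 CPM in SUM44F, 192 CPM in LTED-A, with 411 CPM in LTED-B, but SUM44PE also had 177 CPM. SOSTDC1 was at 0.0460 CPM in MM134 parental cells, within the limit of detection, and at 1.43 CPM in LTED-D and 6.39 CPM in LTED-E. TWSG1, which acts with chordin, rose in LTED-A (0.82) and LTED-E (0.80).

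For the 6 other target genes the median log2 fold change was -1.40, -1.44, -0.69 and -1.48 in MM134 variants A, B, D and E. MSX2, a homeobox gene induced by BMP in limb and bone, fell from 13.9 ± 0.40 CPM to 1.10, 3.24, 5.53 and 3.48 CPM (adjusted p at most 1.08e-10, edgeR), whereas in SUM44 it was 16.2 CPM in SUM44F and 45.2 and 40.3 CPM in the variants. DLX5, a homeobox gene of the same kind, was 2.78 CPM in MM134 parental cells, at most 1 count in the LTED-A libraries and 0.0873 to 0.344 CPM in the other variants. ATOH8, a helix-loop-helix factor, rose in all 4 MM134 variants, from 0.348 CPM to between 2.59 CPM (LTED-B) and 5.88 CPM (LTED-D). ID4, the remaining ID gene, rose in LTED-A (1.39 CPM), LTED-D (0.811 CPM) and LTED-E (2.81 CPM) from 0.144 CPM, and was 0.0806 CPM in LTED-B. In SUM44 LTED-B it was 1.33 CPM against 4.07 CPM in SUM44F, a call (-1.59) that was lost without LTED-B replicate 1 (-1.64) or 2 (-1.46).

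Among other ligands and receptors, BMP5 was lower in all 6 variants: 1.74 CPM in MM134 parental cells and 0.0330 to 0.0806 CPM in the MM134 variants, and 12.3 CPM in SUM44F with 0.688 and 1.71 CPM in the SUM44 variants. GDF7, a ligand, rose in all 4 MM134 variants, most in LTED-A (from 0.334 to 3.28 CPM, log2 fold change 3.30 ± 0.20, adjusted p = 5.21e-11, edgeR). TGFBR1, the TGF-beta type I receptor, rose in all 4 as well, from 81.2 ± 1.5 CPM to 208, 201, 135 and 321 CPM. ACVRL1, a type I receptor best known in endothelium, rose in LTED-D from 0.584 to 2.22 CPM. NEO1, a receptor that binds BMP co-receptors, fell in LTED-A (-1.09), LTED-B (-0.68) and LTED-E (-0.68). In SUM44 the co-receptor TGFBR3 was 17.8 ± 0.11 CPM in SUM44F and 0.961 and 2.92 CPM in LTED-A and LTED-B. TGFBR2 was 3.29 ± 1.5 CPM in SUM44F, and 0.122 and 0.767 CPM in those variants. Its call was lost in LTED-A without the merged LTED-A sample (-4.22), and in LTED-B without SUM44F replicate 2 (-2.20), LTED-A replicate 1 (-2.09) or any LTED-B sample (-2.25 to -1.96).

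SMAD1, SMAD5 and SMAD9 carry the BMP signal, and SMAD2 and SMAD3 that of TGF-beta. SMAD3 fell in all 4 MM134 variants, from 41.8 ± 1.1 CPM to 12.1, 16.2, 19.4 and 13.1 CPM (adjusted p at most 5.02e-12, edgeR). SMAD1 fell in LTED-B (-0.62) and LTED-E (-0.73), and the LTED-B call was lost without LTED-B replicate 1 (-0.55). SMAD9 rose in LTED-A (from 0.896 to 1.66 CPM) and LTED-E (2.20 CPM). It was lower in SUM44 LTED-B (1.45 CPM) than in SUM44F (2.79 CPM), a call lost when any SUM44F or LTED-B sample was left out (-1.02 to -0.90). Of the E proteins, TCF3 was called in LTED-E among the MM134 variants (-0.61). TCF4 was 36.6 CPM in SUM44F, 80.9 CPM in SUM44 LTED-A and 13.99 CPM in SUM44 LTED-B, and 0.855 to 1.52 CPM in the MM134 groups.

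**Figure D4:**
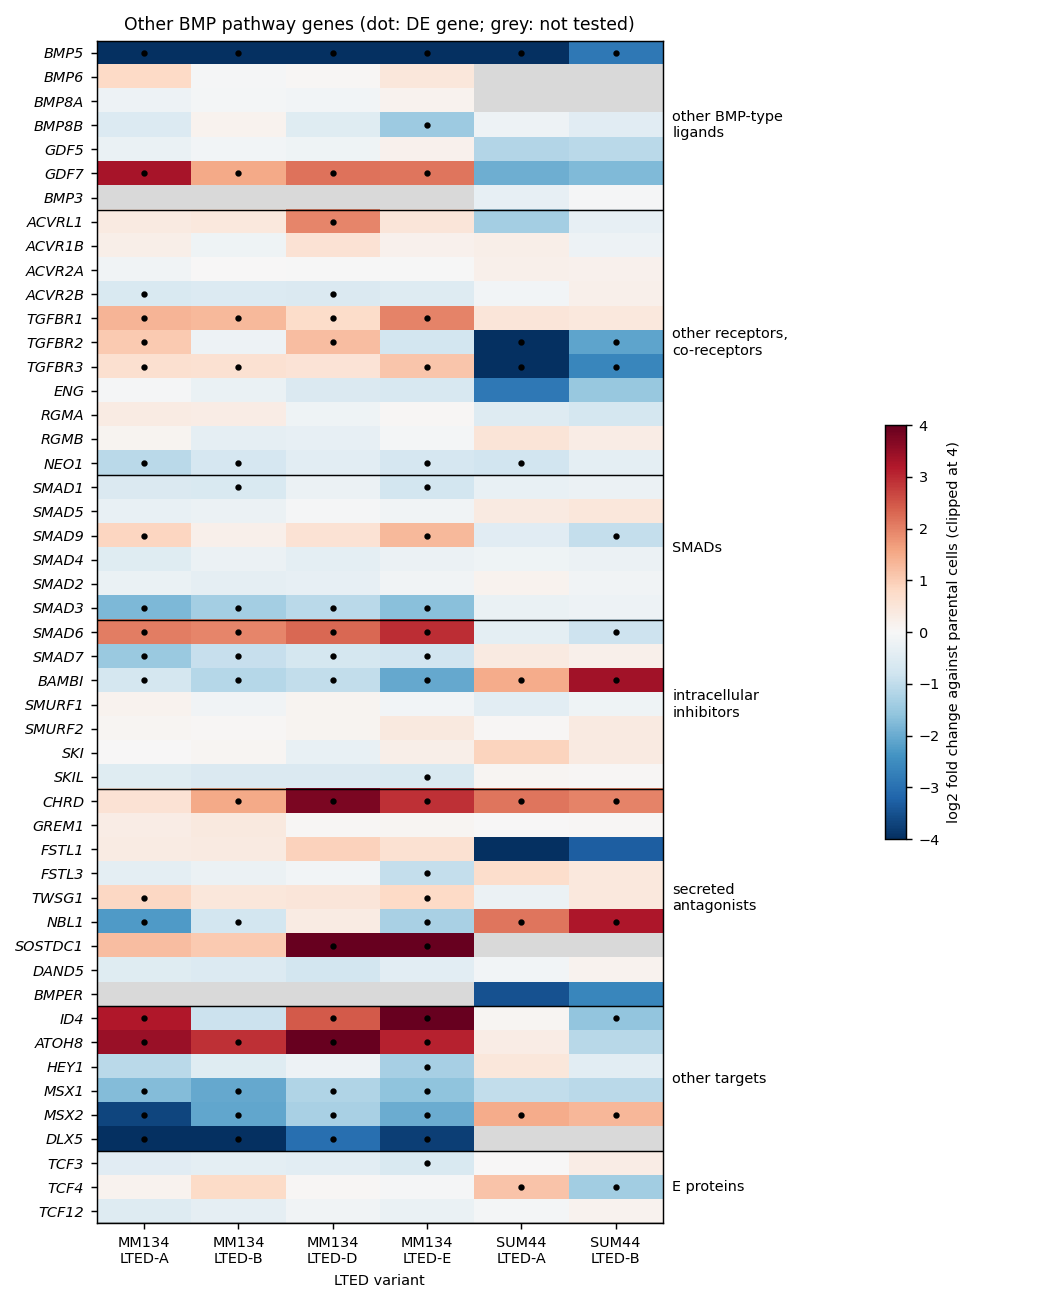
Log2 fold change against parental cells (colour) of the tested genes of 7 BMP pathway lists in 6 LTED variants, with a dot for each DE gene and grey where a gene was not tested. SMAD6 is red and SMAD7 and SMAD3 are blue in the 4 MM134 columns, while BAMBI and MSX2 are blue in the MM134 columns and red in both SUM44 columns.

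MM134 parental cells and SUM44F differed in 25 of the 51 tested pathway genes, 10 higher and 15 lower in MM134, beside 19.1% and 19.0% of all genes. The number that was higher was near that share. BAMBI was higher in MM134 (log2 fold change 3.49 ± 0.06, adjusted p = 1.06e-24, edgeR), as were CHRD (3.29), NBL1 (1.82), TGFBR1 (1.71) and SMAD2 (0.64). TCF4 was lower (-5.35 ± 0.11, adjusted p = 5.17e-23, edgeR), as were ID4 (-4.77), TGFBR2 (-2.91), SMAD9 (-1.63), SMAD6 (-1.26), BMP5 (-2.83) and GDF7 (-2.64). ENG, an endothelial co-receptor, was called lower (-1.81), and this call was lost without MM134 parental replicate 1 (-1.44), parental replicate 2 (-1.98) or SUM44F replicate 1 (-1.17), the sample with the highest endothelial markers.

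The 3 genes whose pattern over the 9 group means was most like that of BMPR1B were SNX8 (Pearson r = 0.945 on log2(CPM + 1)), WARS1 (0.942) and UNC5C (0.941), of 19211 genes compared. Most like ID1 were TMUB2 (0.925), PNMT (0.916) and ENSG00000258790 (0.912). These values describe 9 points in which groups of 1 line share their origin. UNC5C, a netrin receptor, is also the next gene after BMPR1B on chromosome 4 (95162504 to 95549206). Its mean was 0.0870 CPM in SUM44F and 0.977 and 2.79 CPM in SUM44 LTED-A and LTED-B, and in MM134 it did not pass the filter on low counts.

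Among the 10 tested genes nearest to BMPR1B (5 on each side), the median log2 fold change was 0.10, 0.19, 0.24 and 0.13 in MM134 variants A, B, D and E. In SUM44 the medians were 0.23 in LTED-A and -0.23 in LTED-B. CCSER1 had the widest differences of these genes in MM134 (2.80, 2.30, 3.33 and 1.72). In SUM44 the 10 genes lay on both sides of SUM44F: 5 were above it in both variants, 4 were below it in both, and 1 was above in one and below in the other. PDLIM5, the nearest of these genes before BMPR1B, was 2.40 and 2.003 above SUM44F, and UNC5C was above it as given. The unnamed gene ENSG00000279013 was lower (log2 fold changes of -0.84 and -2.37). Another, ENSG00000249049, had 18 to 34 counts in the SUM44F libraries, 2 to 5 in LTED-A and 1 count in each LTED-B library. Both unnamed genes lie within the span of CCSER1 (90127394 to 91605295), so they are not separate places on the chromosome. CCSER1 itself was lower than SUM44F in both variants (log2 fold changes of -0.57 and -0.77). CCSER1, PDLIM5 and both unnamed genes were singled out after their values were seen.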

How the data were processed

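RNA-seq was available for 27 libraries in 9 groups. Per the labels and the study's methods, the authors quantified transcripts with Salmon 0.6.0 against Ensembl release 82 (hg38) and deposited estimated counts per gene, 1 column per library. Fractions were rounded to whole counts, and whether strand was used is not given in the sources used here. SUM44 LTED-A replicates 2 and 3 were merged (chi-square per degree of freedom of 0.312 between them, 2.35 to 58.3 for the other 26 pairs). For SUM44F this value was 14.2 between replicates 1 and 2, 42.9 between 1 and 3, and 39.25 between 2 and 3. Genes were filtered with filterByExpr (minimum count 10, minimum total 15), scaled by TMM and tested with the quasi-likelihood test of edgeR 4.0.16 (R 4.3.3), 2-sided, in 1 fit for MM134, 1 for SUM44F with its variants, 1 for all SUM44 groups and 1 for all 9 groups. p-values were adjusted over all genes tested, and a DE gene needed a fold change over 1.5 and an adjusted p under 0.001. The standard errors of edgeR fits were derived from that test, as the absolute log2 fold change divided by the square root of its F statistic. DESeq2 1.42.0 was an alternative. The steps were tested on simulated counts. Exon lengths came from GENCODE on GRCh38.

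The 10 genes and the pathway lists were chosen with earlier results of these data known. All 10 genes are named. Of each pathway list, the 2 DE genes with the largest change and a mean of at least 1 CPM in a group are named for each comparison with parental cells. Library depth limits what can be said of genes near 3 counts, between 0.0263 and 0.0972 CPM.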

Additional observations from a re-analysis of the deposited data

Results flagged for a closer look

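ID2 moved in opposite directions in the 2 lines when SUM44F was taken as the SUM44 parent. The highest MM134 LTED sample, at 67.5 CPM, lay below every MM134 parental sample. The lowest SUM44 LTED sample, at 94.6 CPM, lay above every SUM44F sample. The other parental culture, SUM44PE, at 89.8 to 101 CPM, overlapped LTED-A. Against SUM44PE the log2 difference was 0.18 in LTED-A, not called, and 0.79 in LTED-B, called. The difference between the lines was not tested, and the SUM44 side belongs to the contrast used to choose the genes. ID3 differed between variants of 1 line, with a log2 difference of -1.63 ± 0.04 in MM134 LTED-B against LTED-D (adjusted p = 3.76e-15, edgeR), LTED-B lying below and LTED-D above the parental cells.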

How the results depend on the processing

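Of the log2 fold changes recomputed for the genes, 2802 kept their direction and their side of the thresholds, 78 lost a call, 43 gained one and 18 changed sign. The alternatives were DESeq2, other size factors, other filters and thresholds, other sets of samples in the fit and each sample left out. The cause of a change was not tested, except that a higher or lower fold minimum moves calls by its construction.

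Without a fold minimum, 9 of the 9 tested genes were called in MM134 LTED-A, 8 in LTED-D and 9 in LTED-E (5, 5 and 4 as reported), where 37.8%, 35.4% and 35.5% of all genes were called. Among the MM134 variants it gave 36 gene-by-pair comparisons in place of 23, with 19.8% to 27.6% of all genes called in a pair. Other pathway genes then came to 29, 26 and 29 in LTED-A, LTED-B and LTED-D, in place of 19, 16 and 17 (32.5% of all genes in LTED-B). With a fold minimum of 2, the genes called were 2 each in MM134 LTED-D, MM134 LTED-E, SUM44 LTED-A and SUM44 LTED-A against LTED-B, and 1 in SUM44PE against SUM44F, where 2 other pathway genes were left of 4. Of all genes, 10.7%, 11.97%, 8.66%, 4.43% and 2.80% were then called in those comparisons. With only the groups compared in the fit, SUM44 LTED-A had 2 genes called in place of 4 (8.26% of all genes). Other pathway genes called in MM134 LTED-D came to 11 with at least 10 counts in every sample (19.4% of all genes). In SUM44 LTED-A and LTED-B they came to 16 and 18 with an adjusted p under 0.05 (9 and 11 as reported), beside 23.8% and 29.4% of all genes. They came to 14 and 17 with no filter on low counts (9.70% and 11.6%), which also gave 7 in SUM44PE against SUM44F (3.90%). DESeq2 called 14 in SUM44 LTED-A (16.9%).

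Leaving out 1 sample at a time gave 1 to 4 genes in SUM44 LTED-A against LTED-B and 7 to 11 other pathway genes in SUM44 LTED-B. The lowest of these came without LTED-A replicate 1 for the former (4.01% of all genes), and without LTED-B replicate 1 or 2 for the latter (13.1% and 12.5%). In MM134 against parental cells, 5 genes were called in LTED-A, LTED-B and LTED-D whichever sample was left out, and 4 to 6 in LTED-E.

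Same-numbered samples did not deviate together: correlations of their deviations ran from -0.387 to 0.280 over 30 pairs in MM134 (6 over 0.1) and from -0.215 to 0.253 over 18 pairs in SUM44 (5 over 0.1). In MM134 5 of 15 and in SUM44 5 of 12 samples correlated best with their own number. With a replicate block, SUM44 LTED-A against LTED-B had 2 genes called in place of 4 (5.07% of all genes), and the other counts stayed within 1.5 times.

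None of the values that changed sign had been called. For BMPR1A in SUM44 LTED-A they were 0.094 with SUM44PE as parent and 0.074 without LTED-A replicate 1 (leave-one-out values from -0.16 to 0.074). For BMPR1A in SUM44 LTED-B they were 0.0172 with DESeq2, 0.0173 with its size factors, 0.13 with SUM44PE as parent, and leave-one-out values ran from -0.036 to 0.0058. For BMPR1A between the SUM44 variants the value was 0.0014 with LTED-A replicates 2 and 3 separate, and leave-one-out values ran from -0.15 to 0.068. BMPR2 in SUM44 LTED-A ran from -0.28 to 0.071 and BMP7 between the SUM44 variants from -0.076 to 0.11 with a sample left out. ACVR1 in SUM44 LTED-A was -0.013 with at least 10 counts in every sample, -0.073 with the replicate block, -0.087 with LTED-A replicates 2 and 3 separate, -0.27 with SUM44PE as parent, and from -0.29 to 0.29 with a sample left out. BMP4 in SUM44 LTED-A was 0.14 with SUM44PE as parent.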
